A study of Mus musculus with 6 samples.

Results

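Profibrotic and tissue growth factors were followed in Kupffer cells, macrophages resident in the liver, as 10 named genes: Tgfb1, Tgfbi, Pdgfa, Pdgfb, Pdgfc, Thbs1, Osm, Igf1, Hbegf and Fn1. Members were taken by gene symbol from the deposited count table, and all 10 were found among its 54532 genes. The series holds 3 libraries of mice lacking Trem2 (Trem2_KO) and 3 libraries of their wild-type littermates (WT). All mice were male, were 8 weeks old when a high fat diet began, and ate it for 8 weeks before the liver Kupffer cells were sorted, so both genotypes carry the diet. The sources used here give neither the Trem2 exons removed nor the sort gate, and do not say whether each library is a separate mouse. The p-values therefore measure the spread between these libraries, which may be technical.

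These factors are signals by which macrophages act on matrix-forming and parenchymal cells. TGF-beta 1 is secreted in a latent complex and, once released, is a strong inducer of collagen synthesis in hepatic stellate cells. PDGF ligands act as dimers on receptors of mesenchymal cells and drive their division and migration. Oncostatin M, IGF-1 and HB-EGF act through gp130, the IGF-1 receptor and the EGF receptor. Thrombospondin 1, fibronectin and the TGFBI protein are secreted matrix or matricellular proteins.

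Library totals were 16347967 to 17135603 counts in Trem2_KO and 15799351 to 15893041 in WT. Trem2 itself was read at 16.6, 17.4 and 14.5 CPM (read counts scaled to a common library size with TMM) in Trem2_KO, against 84.8, 90.1 and 84.3 CPM in WT, in the direction of the labels in every library. All 11 Kupffer cell markers were read in every library and tested, and they did not move alike. The scavenger receptor gene Marco was at 641, 624 and 592 CPM in Trem2_KO and 1320, 1360 and 1320 CPM in WT (log2 change -1.11), Timd4 was at -0.34 and Cd5l at -0.20. Picked with their values in view, Clec4f had 11000 to 11300 CPM in Trem2_KO and 12000 to 12700 CPM in WT (-0.14), and Adgre1 (-0.02) and Csf1r (0.00) were not called. The 11 summed to 41500 to 42200 CPM in Trem2_KO and 46000 to 47300 CPM in WT, and 9 of them were called lower and 0 higher by edgeR (0 higher at an unadjusted p under 0.05 and by DESeq2). Of all tested genes 15.1% were called lower and 15.3% higher. In bulk RNA, fewer cells of a type and less RNA of a gene per cell cannot be told apart.

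The genes moved in opposite directions with genotype. Tgfbi, Pdgfb, Igf1 and Tgfb1 fell in Trem2_KO, with changes from -20.2% for Tgfbi to -6.48% for Tgfb1. Osm, Thbs1, Hbegf and Fn1 rose, with changes from 14.6% for Fn1 to 179% for Osm. Pdgfa and Pdgfc were not called. Calls were made where edgeR's quasi-likelihood test over 13776 genes gave an adjusted p (Benjamini-Hochberg) under 0.05. Of the 10 members, 4 were called higher and 4 lower, beside 15.3% of all tested genes called higher and 15.1% called lower (30.4% in either direction). CPM did not overlap between the groups for 8 of the 10 members, beside 41.6% of all tested genes. The members had a median log2 change of -0.06 and a median absolute log2 change of 0.202, against -0.005 and 0.157 over all tested genes. With DESeq2 the counts were 2 higher and 4 lower, beside 22.5% of genes called in either direction (11.8% higher, 10.7% lower), and Osm and Fn1 lost their calls. With the spread between replicates fixed at a biological coefficient of variation of 0.2 in edgeR, 1 member (Osm) was called higher and 0 lower, with 2 higher and 0 lower at an unadjusted p under 0.05, beside 2.69% of genes called in either direction (1.95% higher, 0.748% lower). The fitted common value was 0.0378. For Osm the fixed value was the looser setting, with an SE of 0.462 against 0.512 in the main fit.

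**Figure D1:**
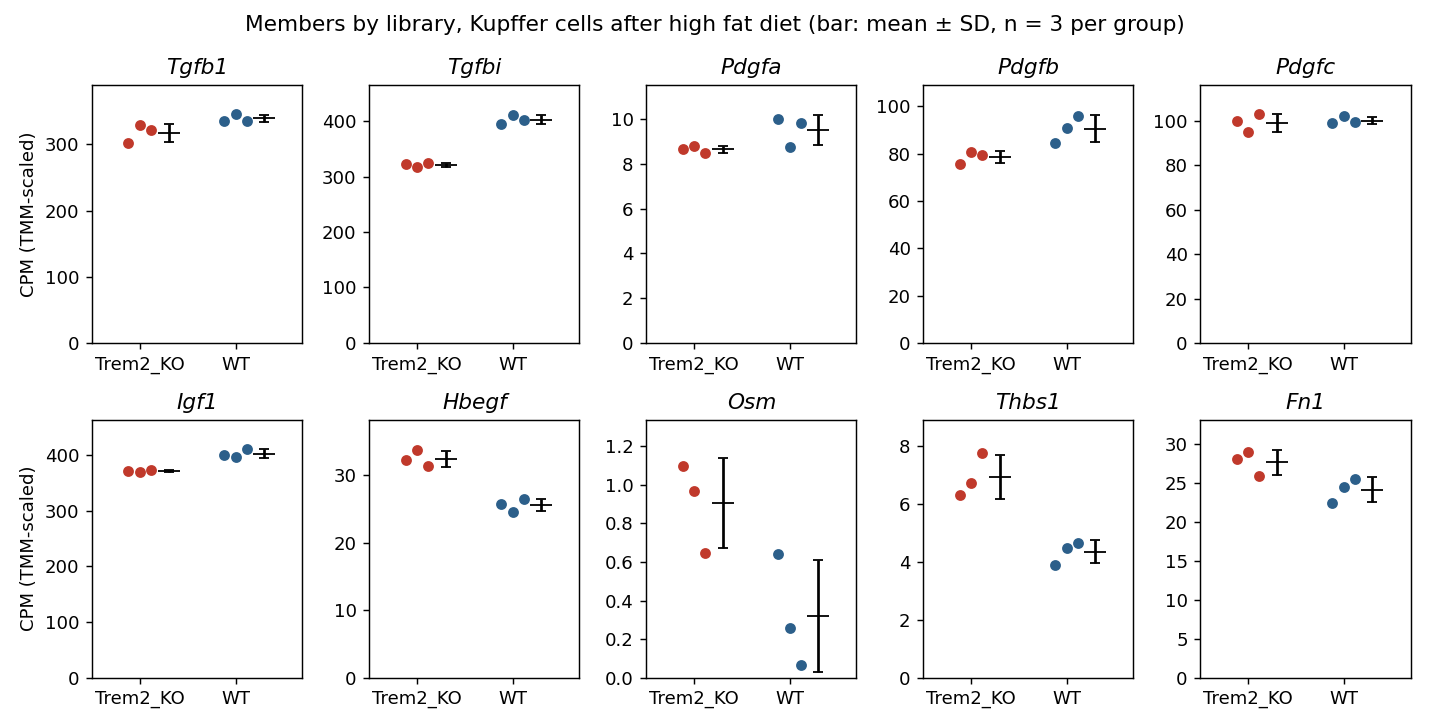
CPM (TMM-scaled, axis from 0) of each member in every library, Trem2_KO left and WT right, points for the 3 libraries of each group and bars for the mean ± SD. Tgfbi separates widely, at 318 to 325 CPM in Trem2_KO and 395 to 411 CPM in WT, while Pdgfc overlaps.

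Levels were compared between genes per length, on the deposited FPKM scale. Tgfbi stood highest, at 84.8 ± 0.894 FPKM in Trem2_KO and 106 ± 1.99 FPKM in WT (SD, n = 3 each, as for all FPKM values here). Tgfb1 followed at 62.6 ± 2.81 FPKM in Trem2_KO and 67 ± 1.14 FPKM in WT, and Igf1 came next at 37.3 ± 0.198 FPKM in Trem2_KO and 40.5 ± 0.791 FPKM in WT. These levels did not overlap with one another in any library. Pdgfc and Pdgfb were neighbours, with Pdgfc at 19.4 ± 0.77 FPKM in Trem2_KO and 19.6 ± 0.333 FPKM in WT, and Pdgfb at 18.7 ± 0.629 FPKM in Trem2_KO and 21.7 ± 1.35 FPKM in WT. The FPKM ranges of this pair overlapped in Trem2_KO, and in WT every Pdgfb value lay above every Pdgfc value. Hbegf stood at 13.6 ± 0.481 FPKM in Trem2_KO and 10.7 ± 0.384 FPKM in WT.

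The remaining members were low. Pdgfa had 2.76 ± 0.0524 FPKM in Trem2_KO and 3.05 ± 0.219 FPKM in WT, and Fn1 had 2.35 ± 0.136 FPKM in Trem2_KO and 2.05 ± 0.135 FPKM in WT. Thbs1 had 1.13 ± 0.124 FPKM in Trem2_KO and 0.712 ± 0.0651 FPKM in WT. Osm was the lowest, at 0.396 ± 0.102 FPKM in Trem2_KO and 0.14 ± 0.128 FPKM in WT, where a single library held as little as 1 read. The 4 members that rose were thus all among the 5 lowest by WT level, and Tgfbi, Tgfb1 and Igf1, which fell, were the highest. Summed over the 10 genes the level was 239, 244 and 245 FPKM in Trem2_KO and 268, 274 and 273 FPKM in WT, with Tgfbi making up 34.9% of it in Trem2_KO and 39.1% in WT.

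**Figure D2:**
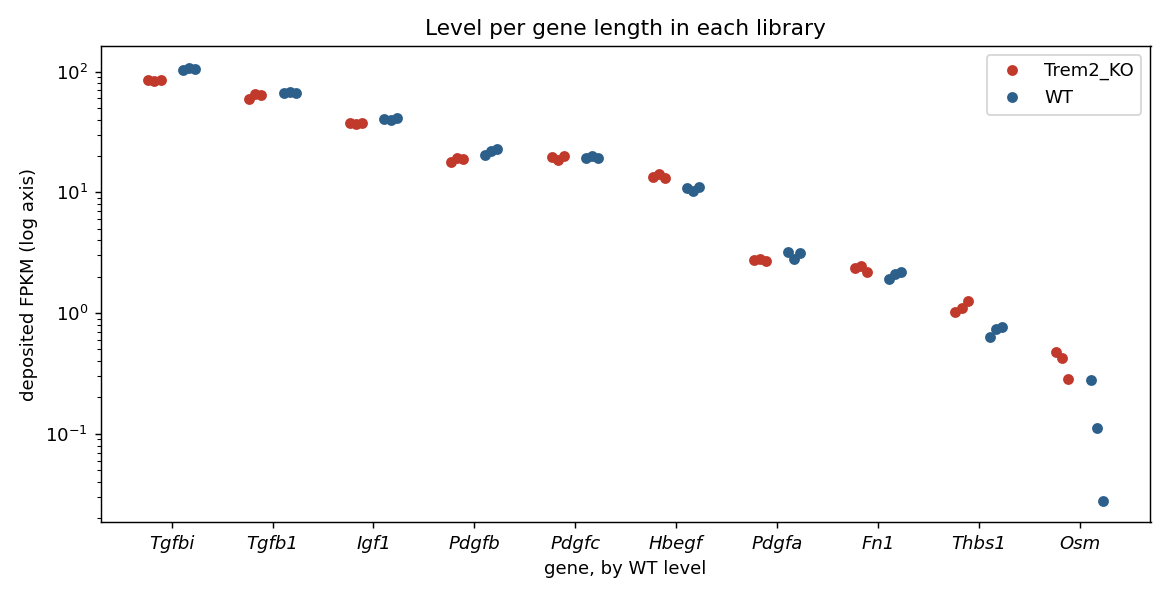
Deposited FPKM of each member in every library on a log axis, genes ordered by WT level, Trem2_KO left of WT. The levels span from Tgfbi at 84.8 FPKM in Trem2_KO and 106 FPKM in WT to Osm at 0.396 FPKM in Trem2_KO and 0.14 FPKM in WT.

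No member lies on chromosome 17, where Trem2 lies, and the 10 genes lie on 10 different chromosomes. RefSeq (GRCm38.p6) gave start-site windows for 5 members, Tgfb1, Tgfbi, Igf1, Pdgfa and Pdgfc. The 250 bases before the RefSeq start are printed for Tgfbi, Tgfb1 and Igf1, which fell, and for Pdgfc, which was not called. Genes that moved can so be read beside one that did not pass the test. In the annotation of the deposited counts, the Igf1 window lies inside the gene (87858265 to 87937042). The Tgfbi window runs past the gene start at 56609523 there. The Tgfb1 and Pdgfc windows end just before their gene starts. Capitals mark matches on either strand to 6 motifs: AP-1 (TGANTCA), CRE (TGACGTCA), EGR (GCGTGGGCG), the TATA box (TATAAA), the CArG box and the kappa B site.
Tgfbi, chr13:56609336-56609585, plus strand: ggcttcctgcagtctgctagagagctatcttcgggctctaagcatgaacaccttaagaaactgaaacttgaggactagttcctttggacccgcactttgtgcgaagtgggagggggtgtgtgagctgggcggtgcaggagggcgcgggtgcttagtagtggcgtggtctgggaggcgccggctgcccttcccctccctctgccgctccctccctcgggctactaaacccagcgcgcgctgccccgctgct
Tgfb1, chr7:25686752-25687001, plus strand: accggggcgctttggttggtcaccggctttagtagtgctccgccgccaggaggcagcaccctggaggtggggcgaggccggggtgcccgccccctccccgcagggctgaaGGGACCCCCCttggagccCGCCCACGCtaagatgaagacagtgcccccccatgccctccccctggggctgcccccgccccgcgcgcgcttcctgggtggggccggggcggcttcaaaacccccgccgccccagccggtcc
Igf1, chr10:87860861-87861110, plus strand: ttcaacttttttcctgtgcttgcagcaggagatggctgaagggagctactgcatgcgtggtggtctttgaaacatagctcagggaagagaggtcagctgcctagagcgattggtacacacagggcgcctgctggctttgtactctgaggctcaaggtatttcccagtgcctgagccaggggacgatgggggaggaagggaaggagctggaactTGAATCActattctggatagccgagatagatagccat
Pdgfc, chr3:81036166-81036415, plus strand: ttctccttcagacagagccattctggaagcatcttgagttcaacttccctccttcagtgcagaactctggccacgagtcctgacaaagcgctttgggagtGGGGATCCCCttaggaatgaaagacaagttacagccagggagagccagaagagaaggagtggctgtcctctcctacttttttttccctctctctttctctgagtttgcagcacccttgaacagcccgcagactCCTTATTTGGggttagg
The Tgfb1 window held an EGR match, present in 0.536% of 32851 windows, and a kappa B match, present in 7.25%. An AP-1 match stood in the Igf1 window (6.75% of windows), and the Pdgfc window held a CArG box match (1.47%) and a kappa B match. The Tgfbi window held no match to these 6 motifs. Tgfb1 and Tgfbi were rich in G and C, at 75.2% and 62.4% of bases, while Igf1 at 52.8% and Pdgfc at 50.8% stood near the median window of 52.4%. A match describes letters and is not a bound site.

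TGF-beta genes. Tgfb1 (ENSMUSG00000002603, chromosome 7, 25687002 to 25705077, on the GRCm38 build) had 302, 329 and 322 CPM in Trem2_KO, against 336, 346 and 336 CPM in WT. Every knockout library lay below every WT library, by a narrow margin. Its log2 change was -0.10 (SE 0.0317, edgeR adjusted p = 0.016). The call was lost without Trem2_KO replicate 1 (adjusted p = 0.207), without WT replicate 2 (0.0712) and with total counts in place of TMM scaling (0.11).

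Tgfbi (ENSMUSG00000035493, chromosome 13, 56609523 to 56639562), a matrix protein gene named for its induction by TGF-beta, was read at 322, 318 and 325 CPM in Trem2_KO and 395, 411 and 403 CPM in WT. The groups lay far apart relative to their spread, with standard deviations of 3.41 CPM in Trem2_KO and 7.69 CPM in WT. The log2 change was -0.32 (SE 0.0295, edgeR adjusted p = 3.18e-13), the smallest p of the 10 members. Tgfbi over Tgfb1, a ratio of FPKM chosen once the counts were known, did not overlap between the groups and was 1.43, 1.29 and 1.35 in Trem2_KO and 1.57, 1.59 and 1.6 in WT (exact permutation test, two-sided p = 0.1, the smallest that 3 against 3 allows).

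In the wider TGF-beta system most called genes were higher in Trem2_KO. Of 9 tested genes for other ligands, latency proteins and activators, 6 were called higher and 1 lower, with a median log2 change of 0.21. Over all tested genes 15.3% were called higher and 15.1% lower, the shares to hold beside every list count below. Tgfb3, the gene of a further TGF-beta isoform, was read at 42, 44.4 and 45.6 CPM in Trem2_KO and 14.2, 14.1 and 15.2 CPM in WT, a log2 change of 1.60 (SE 0.074, edgeR adjusted p = 1.02e-24). It overlaps Ttll5 on the other strand, which had 792 reads over the libraries. Itgb5, which encodes the integrin beta 5 chain, rose by 0.21 on the log2 scale. Nrros, which anchors latent TGF-beta 1 on macrophages, fell by 0.25, at 324, 323 and 332 CPM in Trem2_KO and 388, 386 and 394 CPM in WT.

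Receptor and SMAD genes gave 5 higher and 0 lower of 12 (4 higher and 0 lower by DESeq2, 0 lower at an unadjusted p under 0.05), with a median of 0.11. The type I receptor gene Tgfbr1 rose by 0.26 (SE 0.0353, edgeR adjusted p = 2.24e-08) and the ubiquitin ligase gene Smurf2 by 0.35, while Tgfbr2 was at -0.05 and was not called. The co-receptor genes Eng and Tgfbr3 rose by 0.41 and 0.74 and Smad4 by 0.19. Tgfbr3 overlapped between the groups, at 2.08 to 3.7 CPM in Trem2_KO and 1.15 to 2.36 CPM in WT (edgeR adjusted p = 0.0262). Eng overlaps Fpgs on the other strand (1067 reads). Tgfbr2 and Tgfbr3 were picked with their values in view. Genes known to respond to TGF-beta gave 5 higher and 1 lower of 8, with a median of 0.38. Of these, the inhibitory SMAD gene Smad7 was at 118, 120 and 131 CPM in Trem2_KO and 99.4, 97.6 and 88.2 CPM in WT, a log2 change of 0.37. Tgif1 rose by 0.26 and Skil by 0.22, both corepressors of SMAD transcription. Ctgf, a matricellular factor, rose by 1.57 from a very low level, 0.789 to 1.88 CPM in Trem2_KO and 0.383 to 0.639 CPM in WT. With 6, 7 and 10 reads in WT, Ctgf passed the filter on low counts through the knockout libraries. The gene called lower was Pmepa1 at -0.80, picked with its value in view.

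PDGF ligands. Pdgfb (ENSMUSG00000000489, chromosome 15, 79995874 to 80014977), whose product is a strong mitogen for stellate cells, was read at 75.6, 80.5 and 79.3 CPM in Trem2_KO and 84.6, 91 and 96.1 CPM in WT. The groups did not overlap, and WT varied more. Its log2 change was -0.21 (SE 0.0479, edgeR adjusted p = 0.000571). The gene overlaps Gm41361 on the other strand, which had 96 reads over the libraries against 8232 for Pdgfb.

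Pdgfc (ENSMUSG00000028019, chromosome 3, 81036416 to 81214040), the ligand that is secreted with an inhibitory CUB domain, was read at 99.8, 94.9 and 103 CPM in Trem2_KO and 98.9, 102 and 99.5 CPM in WT. The groups overlapped. The log2 change was -0.02 with a 95% interval of -0.10 to 0.07 (edgeR adjusted p = 0.831), and its sign turned to 0.02 with total counts and without Trem2_KO replicate 2.

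Pdgfa (ENSMUSG00000025856, chromosome 5, 138976014 to 138997370) was read at 8.67, 8.8 and 8.47 CPM in Trem2_KO and 10, 8.76 and 9.84 CPM in WT. A WT library lay between knockout libraries, so the groups overlapped. The log2 change was -0.14 with a 95% interval of -0.38 to 0.10 (edgeR adjusted p = 0.418), an interval wide enough to hold the Pdgfb change. The antisense transcript 6330403L08Rik overlaps Pdgfa and had 841 reads, close to the 887 of Pdgfa itself. Since the sources used here do not give the strand setting, reads of this pair cannot be told apart.

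Together the 3 ligand genes summed to 40.3, 40.6 and 41.7 FPKM in Trem2_KO and 42.8, 44.5 and 45.5 FPKM in WT. Pdgfc made up 47.4% of this sum in Trem2_KO and 44.2% in WT, and Pdgfb made up 45.9% in Trem2_KO and 48.9% in WT. The Pdgfc over Pdgfb ratio, likewise chosen with the counts known, was 1.08, 0.963 and 1.06 in Trem2_KO and 0.955, 0.918 and 0.847 in WT, without overlap (exact permutation test, two-sided p = 0.1, the smallest possible).

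Among other genes of the PDGF and VEGF family, 3 of 7 tested were called higher and 0 lower (0 lower at an unadjusted p under 0.05 and by DESeq2), with a median of 0.46. Vegfa, the endothelial growth factor gene, was read at 7.75, 7.95 and 6.53 CPM in Trem2_KO and 1.4, 1.85 and 1.6 CPM in WT, a log2 change of 2.19 (SE 0.193). It lies 2.33 Mb from Trem2. The VEGF receptor genes Flt1 and Kdr rose by 0.66 and 0.46. Of the PDGF receptors, Pdgfrb was at 1.59 to 1.94 CPM in Trem2_KO and 1.34 to 3.13 CPM in WT and was not called, and Pdgfra had 24 reads over all libraries and was not tested.

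Igf1 (ENSMUSG00000020053, chromosome 10, 87858265 to 87937042), a growth factor made by hepatocytes and by macrophages, was read at 372, 369 and 373 CPM in Trem2_KO and 400, 396 and 412 CPM in WT. The knockout libraries lay within a few CPM of each other and below every WT library. Its log2 change was -0.12 (SE 0.0291, edgeR adjusted p = 0.00123). In the same libraries hepatocyte markers gave 2 higher and 5 lower of 11, with Mup3 at -1.35, Serpina3k at -0.72 and Apoa1 at -0.71. Picked with their values in view, Apob (0.53) and Cyp3a11 (0.67) were the genes called higher. Alb (-0.05), Ttr (-0.09), Cyp2e1 (-0.02) and Hp (0.01), picked likewise, were not called. The hepatocyte markers summed to 1420 to 1460 CPM in Trem2_KO and 1640 to 1710 CPM in WT, and none was at 0. Kupffer cell markers had a median of -0.16. The part of either marker list in the Igf1 result was not tested.

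The IGF axis otherwise gave 5 higher and 1 lower of 11 tested genes, with a median of 0.31. Irs2, an adaptor of the insulin and IGF-1 receptors, was read at 30.9, 35.4 and 34.6 CPM in Trem2_KO and 20.1, 20.3 and 21.7 CPM in WT, a log2 change of 0.70 (SE 0.0748, edgeR adjusted p = 5.38e-11). The insulin receptor gene Insr rose by 0.31 and Igf2r, the gene of a receptor that clears IGF-2, by 0.32, while Igf1r was at -0.17 and was not called. Igfbp1 (0.81) and Igfbp7 (0.48) were the other genes called higher, and these and Igf1r were picked with their values in view. Igfbp2, an IGF-binding protein gene, was at 2.2, 1.4 and 1.47 CPM in Trem2_KO and 5.62, 6.33 and 7.35 CPM in WT, a log2 change of -1.92.

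Hbegf (ENSMUSG00000024486, chromosome 18, 36504929 to 36515805), which encodes a membrane-anchored ligand of the EGF receptor, was read at 32.3, 33.7 and 31.4 CPM in Trem2_KO and 25.7, 24.6 and 26.5 CPM in WT. All knockout libraries lay above all WT libraries. Its log2 change was 0.34 (SE 0.0701, edgeR adjusted p = 0.000107), a 26.8% rise. It was the most abundant per length of the members that rose.

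Of 11 tested EGF family, receptor and shedding genes 2 were called higher and 2 lower (1 higher and 2 lower by DESeq2), with a median of 0.07, beside 15.3% and 15.1% of all tested genes. Errfi1, a feedback inhibitor of the EGF receptor, rose by 0.31, and Egfr itself was at 3.18, 2.55 and 2.82 CPM in Trem2_KO and 7.6, 8.18 and 8.57 CPM in WT, a log2 change of -1.50 (SE 0.164, edgeR adjusted p = 8.97e-11). Rhbdf2, which carries the sheddase ADAM17 through the secretory pathway, fell by 0.15, and its relative Rhbdf1 rose by 0.42, a call lost with DESeq2 (adjusted p = 0.0731) and without Trem2_KO replicate 1 (0.137), WT replicate 1 (0.121) or WT replicate 2 (0.0706). Areg and Nrg1, ligands of this family, had no read in any library, where 3 reads, the limit that a count of 0 allows, correspond to 0.175 to 0.19 CPM.

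Osm (ENSMUSG00000058755, chromosome 11, 4236420 to 4241026), the gene of the gp130 cytokine oncostatin M, had 19, 16 and 11 reads in Trem2_KO and 10, 4 and 1 reads in WT. The highest WT library lay just under the lowest knockout library, and the exact Poisson intervals of these counts, 5.49 to 19.7 for 11 reads and 4.8 to 18.4 for 10 reads, overlap widely. The log2 change was 1.48 (SE 0.512, edgeR adjusted p = 0.0228). Osm passed the filter on low counts through the knockout libraries, since 3 of them and 1 WT library reached its level of 0.62 CPM. The call was lost with DESeq2 (adjusted p = 0.0865) and without Trem2_KO replicate 1 (0.106), Trem2_KO replicate 2 (0.0783), WT replicate 2 (0.0908) or WT replicate 3 (0.164), and the log2 change was 2.45 without WT replicate 1.

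Other gp130 genes gave 9 higher and 0 lower of 14 tested (7 higher and 0 lower by DESeq2, 0 lower at an unadjusted p under 0.05), with a median of 0.28. Clcf1, a related gp130 cytokine gene, was read at 16.6, 16.1 and 17.2 CPM in Trem2_KO and 6.71, 7.16 and 7.54 CPM in WT, a log2 change of 1.22 (SE 0.112). Il6st, which encodes gp130, rose by 0.32, and the kinase gene Pim1 also rose by 0.32. Lifr, the LIF receptor gene, rose by 0.35. The Lifr groups overlapped, at 26.7 to 32.2 CPM in Trem2_KO and 21.1 to 27.6 CPM in WT. The Lifr call was lost with log2(FPKM + 1) (limma adjusted p = 0.103). Osmr, the oncostatin M receptor gene, was picked with its value in view and was low, at 1.15 to 1.65 CPM in Trem2_KO and 0.767 to 1.28 CPM in WT, and was not called. Neutrophils also transcribe Osm: of 5 tested neutrophil markers Lcn2 was called higher (1.76) and Csf3r lower (-0.10), and Ly6g was at 0. Lcn2 had 49, 27 and 35 reads in Trem2_KO and 17, 3 and 10 in WT. With WT replicate 2 at 0.192 CPM, Lcn2 passed the filter on low counts through the knockout libraries. The Csf3r call was lost with DESeq2 (adjusted p = 0.0817), with total counts (0.142) and without Trem2_KO replicate 1 (0.0806), Trem2_KO replicate 2 (0.16) or WT replicate 3 (0.166). The markers summed to 185 to 194 CPM in Trem2_KO and 194 to 210 CPM in WT, of which Csf3r alone held 178 to 188 CPM in Trem2_KO and 187 to 204 CPM in WT. Their part in the Osm result was not tested.

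Thbs1 (ENSMUSG00000040152, chromosome 2, 118111876 to 118127133), whose product thrombospondin 1 can release TGF-beta from its latent complex, was read at 6.3, 6.74 and 7.77 CPM in Trem2_KO and 3.9, 4.48 and 4.67 CPM in WT. The groups did not overlap, on 109 to 132 reads per knockout library and 61 to 73 per WT library. Its log2 change was 0.67 (SE 0.157, edgeR adjusted p = 0.000609), a 1.59-fold difference. Of 4 tested relatives and receptors, Cd36, the scavenger receptor that binds thrombospondin 1, rose by 0.44 (SE 0.0287), at 496, 488 and 508 CPM in Trem2_KO and 372, 366 and 363 CPM in WT. The other 3, Thbs3, Comp and Cd47, were not called, and the median of the 4 was 0.21. None was called lower (0 at an unadjusted p under 0.05 and by DESeq2).

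Platelets also carry thrombospondin 1, PDGF and TGF-beta 1 transcripts. Of 8 platelet markers, 4 could be tested, 1 was called higher and 0 lower (0 lower at an unadjusted p under 0.05 and by DESeq2), Gp1bb was at 0 in all libraries, and the sums were 24.3 to 25.5 CPM in Trem2_KO and 18.7 to 24 CPM in WT. The called gene, Treml1 (log2 change 1.32), lies 0.0135 Mb from Trem2. It had 30, 35 and 30 reads in Trem2_KO and 16, 14 and 5 in WT. With WT replicate 3 at 0.32 CPM, Treml1 passed the filter on low counts through the knockout libraries. The platelet chemokine gene Pf4, picked with its value in view, was at 0.10 and was not called. The part of platelets in the Thbs1 rise was not tested.

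Fn1 (ENSMUSG00000026193, chromosome 1, 71585520 to 71653200), the fibronectin gene, was read at 28, 29 and 25.9 CPM in Trem2_KO and 22.4, 24.5 and 25.5 CPM in WT. The groups came within a CPM of each other without overlapping. The log2 change of 0.20 (SE 0.0758) lay close to the threshold (edgeR adjusted p = 0.0423). It was lost with DESeq2 (adjusted p = 0.121), with limma-voom (0.0521), without filtering (0.0911) and without Trem2_KO replicate 1 (0.106), Trem2_KO replicate 2 (0.183), WT replicate 1 (0.222) or WT replicate 2 (0.0748).

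Fibronectin receptors and matrix partners gave 8 higher and 1 lower of 12 tested (7 higher and 1 lower by DESeq2), with a median of 0.38. Sdc1, a heparan sulfate proteoglycan that binds matrix, was at 7.17, 6.31 and 7.53 CPM in Trem2_KO and 1.92, 3.2 and 3.07 CPM in WT, a log2 change of 1.36 (SE 0.18, edgeR adjusted p = 1.79e-08). Itga5, the alpha chain of the classical fibronectin receptor, rose by 0.38, as did Sdc4, and Sparc, a collagen-binding matricellular protein gene, rose by 0.51. Picked with their values in view, the partner chain gene Itgb1 was at -0.05 and was not called, and the gene called lower was Vtn (-0.24), which encodes vitronectin.

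**Figure D3:**
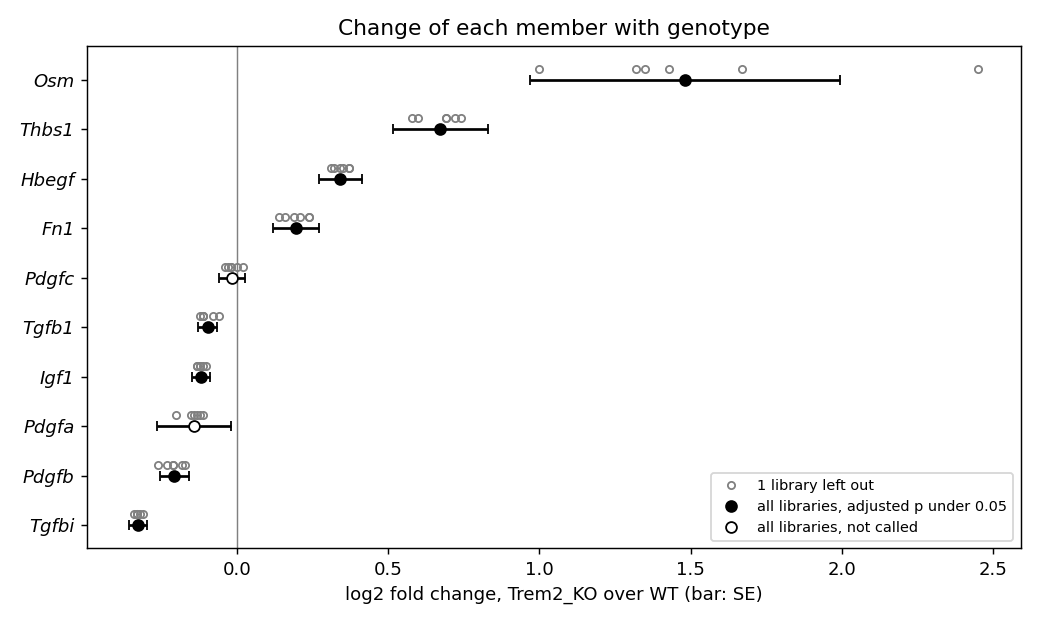
Log2 fold change of each member, Trem2_KO over WT, with its SE (filled: adjusted p under 0.05; open: not called), and in grey the values with 1 library left out. Osm spreads from 1.00 to 2.45 when a library is left out, while Tgfbi stays between -0.34 and -0.31.

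Hbegf, Osm and Thbs1 are known to be induced rapidly on cell stimulation. Immediate early and handling stress genes also moved: of 15 tested, 10 were called higher and 4 lower, summing to 6150 to 6290 CPM in Trem2_KO and 5280 to 5370 CPM in WT. Egr1 was at 237, 257 and 260 CPM in Trem2_KO and 120, 114 and 121 CPM in WT (log2 change 1.09), and Fosb rose by 0.85. Picked with their values in view, Jun (-0.11) and Ier3 (-0.34) were called lower, and Egr3 (0.10) was not called. The heat shock gene Hspa1b, which may share reads with its near-identical copy Hspa1a and is uncertain, was at -1.08. Their part in the rise of the 3 members was not tested.

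Other growth factor genes gave 6 higher and 1 lower of 13 tested (5 higher and 1 lower by DESeq2), with a median of 0.26. Cyr61, a matricellular relative of Ctgf, was read at 35.3, 38.3 and 38.9 CPM in Trem2_KO and 17.6, 15.6 and 15 CPM in WT, a log2 change of 1.22 (SE 0.0773, edgeR adjusted p = 5.32e-19). The TGF-beta superfamily members Gdf15 and Gdf3 rose by 1.13 and 0.84, and the hepatocyte growth factor gene Hgf rose by 0.35. The gene called lower was Grn (-0.10), the progranulin gene, picked with its value in view. Over all 10 pathway lists, 50 of 101 tested genes (49.5%) were called higher and 7 (6.93%) lower, with a median log2 change of 0.26, beside 15.3% and 15.1% of all tested genes. The lists were chosen with earlier results of these data known, so these shares are description only.

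Markers of other liver cells were read in the same libraries. Sinusoidal endothelial markers gave 8 higher and 2 lower of 11 (7 higher and 2 lower by DESeq2), with a median of 0.46, among them Ptprb (0.67), Flt4 (0.75) and Ehd3 (0.61). The endothelial markers summed to 1980 to 1990 CPM in Trem2_KO and 2030 to 2050 CPM in WT. Of these sums Cdh5, picked with its value in view and called lower, held 1120 to 1130 CPM in Trem2_KO and 1250 to 1260 CPM in WT. None was at 0. Endothelial cells also carry Pdgfb, Eng, Kdr, Flt1 and Tgfb3 transcripts. Stellate and fibroblast markers gave 2 higher and 0 lower of 11, the higher ones being Ecm1 (0.32) and Col14a1 (0.58), with 1 lower at an unadjusted p under 0.05 and 0 lower by DESeq2. Their median was -0.39 and their sum was 228 to 230 CPM in Trem2_KO and 187 to 193 CPM in WT, none at 0 in all libraries. Ecm1 alone held 200 to 201 CPM of that sum in Trem2_KO and 156 to 163 CPM in WT. Monocyte markers gave 3 higher and 1 lower of 9 (sums 133 to 136 CPM in Trem2_KO and 123 to 129 CPM in WT), with Ccr2 at 1.45, Cx3cr1 at 1.46 and Plac8, the gene called lower, at -0.22. Plac8 held 67.2 to 69.8 CPM of the sum in Trem2_KO and 79.5 to 80.8 CPM in WT. Picked with their values in view, Chil3 was the other gene called higher (1.81, under 1 CPM in every library), and Itgam (-0.14), F13a1 (-0.36) and Vcan (0.00) were not called. Chil3 had 2, 2 and 6 reads in WT and passed the filter on low counts through the knockout libraries. Cx3cr1 overlaps several genes on both strands. Among them, Csrnp1 on the same strand had 4149 reads, 2896 in Trem2_KO and 1253 in WT. Wdr48 on the other strand had 4642, 2592 in Trem2_KO and 2050 in WT. The part of reads from these genes in the Cx3cr1 change was not tested. Lymphocyte markers gave 0 higher and 2 lower of 3 (0 higher at an unadjusted p under 0.05 and by DESeq2), Ighm at -0.82 and Cd79b at -0.32, and the Cd79b call was lost with DESeq2 (adjusted p = 0.0576) and without Trem2_KO replicate 1 (0.127), WT replicate 1 (0.0699) or WT replicate 2 (0.0747). None of 4 cholangiocyte markers had enough reads to be tested. The part of these cells in the changes of the growth factor genes was not tested.

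**Figure D4:**
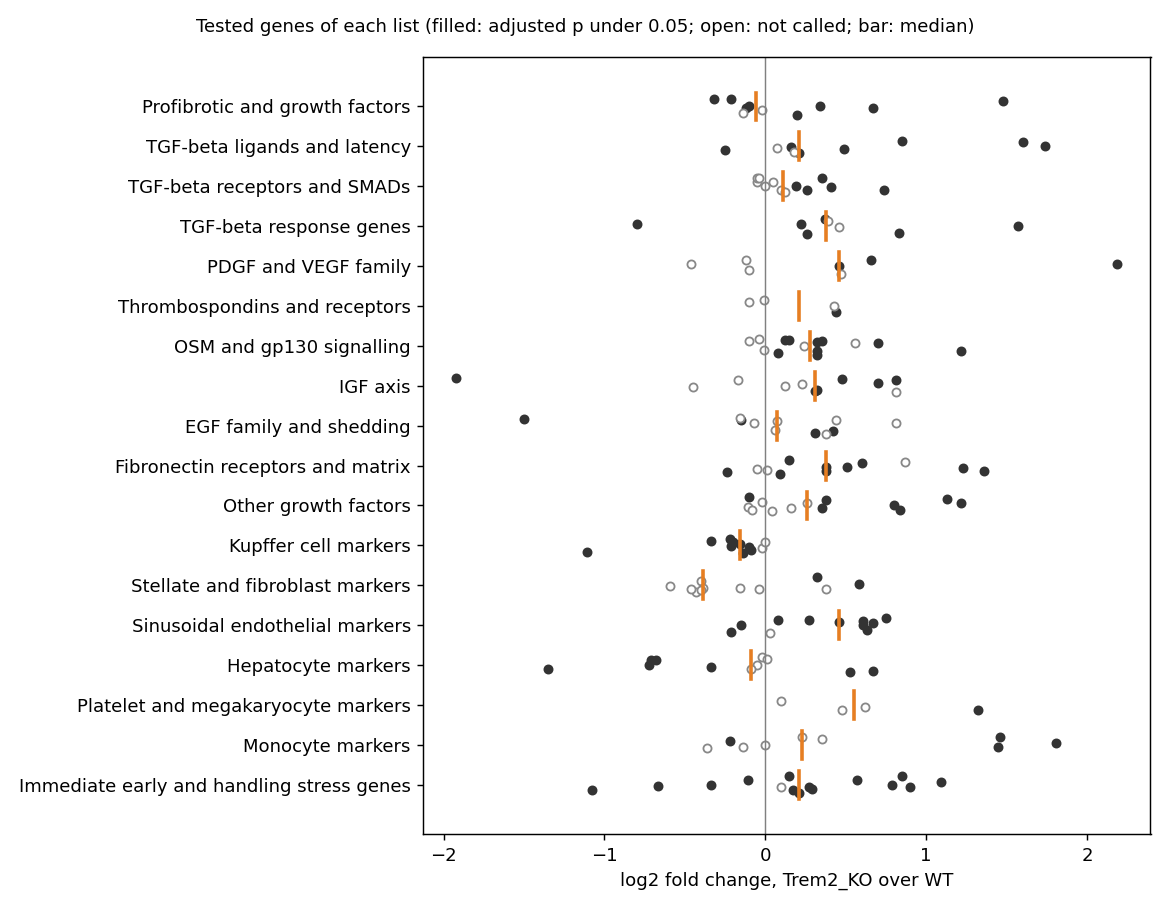
Log2 fold change, Trem2_KO over WT, of every tested gene of the growth factor and pathway lists and of the marker lists other than neutrophil, lymphocyte and cholangiocyte (filled: adjusted p under 0.05; open: not called; orange bar: list median). The 10 growth factor genes lie on both sides of 0 with a median of -0.06, and the pathway lists have medians from 0.07 to 0.46.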

How the data were processed

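Sorted Kupffer cell RNA was sequenced in 6 libraries with a TruSeq kit, per the labels. The deposited counts are whole numbers per gene, not normalized. Tools named in the submitters' processing notes are HISAT2 (2.0.5) for the builds GRCm38 and mm10, featureCounts (1.5.0-p3) and DESeq2 (1.16.1). The sources used here give no strand setting and no treatment of multi-mapping reads. The deposited FPKM values equal count over gene length and over 1 constant per library, 0.989 to 1.02 times its total.

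Differences were fitted to the counts with edgeR 4.0.16 in R 4.3.3, using filterByExpr, TMM scaling and the robust quasi-likelihood test with genotype as the only term, and Benjamini-Hochberg adjustment over 13776 genes. Each SE is the log2 change divided by the root of the F statistic. A count of 3, the limit that a count of 0 allows, equals 0.175 to 0.19 CPM, and it and the Poisson intervals cover counting error only. Libraries of 1 group differed by 1.98 to 2.91 times the sampling noise (chi-square per degree of freedom), so none was counted as a repeat of another.

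In simulated data for these 13776 genes, with 200 changed and 5 draws, the test recovered 52.4% of 1.25-fold changes, 73.6% of 1.5-fold, 83.2% of 2-fold and 96.8% of 4-fold, and on average 8.67% of its calls were false, above the nominal level. In the real libraries 30.4% of tested genes were called, a far larger share than was changed there, so these rates need not carry over.

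Members and gene lists were chosen with earlier results of these data known. Besides the members and Trem2, the rule names the 4 called genes of smallest p in each pathway list and the 3 in each marker list. Any other gene is stated as picked with its value in view or named only as a list's small count. Results of some list genes, 1 of them selected by the rule, are not reported here, though the list counts include them. Alternatives were DESeq2 size factors, total counts, no filter, a stricter filter, DESeq2 1.42.0, limma 3.58.1 (voom, or log2 FPKM plus 1 or 0.1), a biological coefficient of variation of 0.2, a replicate block and each library left out.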

Additional observations from a re-analysis of the deposited data

How the results depend on the processing

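Tgfbi, Igf1 and Hbegf kept their direction and their call under every alternative except a biological coefficient of variation (BCV) fixed at 0.2 for all genes. With that BCV the adjusted p was 0.941 for Tgfbi (log2 change -0.32), 1 for Igf1 (-0.12), 0.913 for Hbegf (0.34), 1 for Tgfb1 (-0.10), 1 for Pdgfb (-0.21), 0.239 for Thbs1 (0.67) and 1 for Fn1 (0.20). Only Osm was called then, at an adjusted p that rounds to 0.05, so 1 member was higher and 0 were lower (2 higher and 0 lower at an unadjusted p under 0.05), where 268 of all tested genes were called higher and 103 lower (2.69%; 1.95% higher, 0.748% lower). Of the pathway list genes 9 were higher and 2 lower. For Osm this BCV was looser than the fitted spread, since its SE fell from 0.512 to 0.462. The SE of every other member rose, for Tgfbi from 0.0295 to 0.236. The Osm call here is therefore not one kept under a stricter test.

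With log2(FPKM + 1) and no filter, Tgfb1 (-0.10), Pdgfb (-0.20), Thbs1 (0.32), Osm (0.30) and Fn1 (0.13) lost their calls, leaving 1 member higher and 2 lower, 1021 genes higher and 1073 lower over all, and 31 pathway genes higher and 4 lower. With the filter, Tgfb1 (-0.10), Osm (0.30) and Fn1 (0.13) lost theirs, and with a pseudocount of 0.1 so did Tgfb1 (-0.10), Osm (1.17) and Fn1 (0.19), each leaving 2 members higher. The added pseudocount lowers the change of low genes by construction. DESeq2 also left 2 higher, with Osm at 1.5 and Fn1 at 0.20. Fn1 lost its call with limma-voom (0.20) and without a filter (0.18), Tgfb1 with total counts (-0.07), and Pdgfc turned to 0.02 with total counts. Total counts moved the median of all genes by 0.03 on the log2 scale. Osm gave no value under the stricter filter.

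With 1 library left out, log2 changes ranged from -0.12 to -0.06 for Tgfb1, -0.04 to 0.02 for Pdgfc, 1.00 to 2.45 for Osm and 0.14 to 0.24 for Fn1. The number of members called higher ranged from 2 to 4, and was 2 without Trem2_KO replicate 1, Trem2_KO replicate 2 or WT replicate 2. The cause of these lost calls was not tested.

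Replicate numbers did not pair the libraries (r of deviations -0.00799, 0.00775 and 0.0447 for numbers 1, 2 and 3). With the number as a block, 4 members were higher and 4 lower, 2119 genes higher and 2111 lower over all, and no call of a member changed (Fn1 adjusted p = 0.0461, Osm 1.53). Of the 58 list genes that the naming rule selects, 13 lost a call under at least 1 alternative other than the fixed BCV, and none changed direction. Osm had 61 reads in all and Pdgfa 887, the lowest counts of the members beside Thbs1 (556). Counting alone gives Osm a coefficient of variation of 44.7% in WT, where the libraries showed 91.6%.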

Other observations

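The spread of the members between libraries of 1 genotype was set beside the spread that counting alone would give. Igf1 had a coefficient of variation of 0.545% in Trem2_KO and 2.04% in WT, where counting alone gives 1.26% in each group. For Tgfbi it was 1.06% in Trem2_KO and 1.91% in WT, beside 1.36% and 1.26% from counting. Tgfb1 varied by 4.43% in Trem2_KO and 1.69% in WT, beside 1.36% and 1.37%, so the knockout libraries spread more than their counts require. Osm varied by 25.7% in Trem2_KO and 91.6% in WT, beside 25.5% and 44.7%.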
